A study of Homo sapiens with 6 samples.

Results

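The genes described here are the zinc finger genes whose symbols start with ZBTB, ZSCAN or ZKSCAN and a digit, or with ZFP and a digit. The deposited table of 14200 genes held 82 such symbols, and in 81 of them the mean over the 6 libraries was 1 CPM or more, where CPM is a read count scaled by library depth. By class, these were 38 ZBTB genes, 16 ZSCAN genes, 7 ZKSCAN genes, 13 ZFP genes with C2H2 fingers, the 3 genes of the ZFP36 family and 4 symbols that share the letters without being the zinc finger gene itself. The study compared Huh7, an established human hepatocellular carcinoma line, after transfection of siRNA against SETD5 (3 libraries, SETD5-deficient) with control Huh7 cells (3 libraries). SETD5 encodes a SET-domain protein of chromatin. All cells were grown in DMEM with serum, RNAiMAX was the transfection reagent, and mRNA was captured on poly-T beads for stranded libraries. The labels do not say what the control cells received. Nothing says that replicates are separate cultures either, so p-values cover the variation among the libraries at hand, and this may be technical.

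Most of these proteins bind DNA through arrays of C2H2 zinc fingers, and the class is set by what precedes the fingers. The BTB domain of ZBTB proteins forms dimers and can recruit corepressors such as NCOR1 and BCOR. The SCAN domain of ZSCAN and ZKSCAN proteins mediates pairing between SCAN proteins. ZKSCAN proteins also carry a KRAB domain, and many KRAB domains, though not all, bind the corepressor TRIM28. ZFP36, ZFP36L1 and ZFP36L2 are of another kind, since their CCCH fingers bind AU-rich elements of mRNA and bring in the CCR4-NOT deadenylase, which shortens the life of the message.

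SETD5 stood at 136, 140 and 138 CPM in the knockdown libraries and at 212, 210 and 202 CPM in the control libraries, without overlap (log2 fold change -0.59, SE 0.032, limma adjusted p 1.15e-17). Between 14038447 and 17095417 reads per library could be recovered from the values. The hepatocyte markers AFP, ALB, APOA1, APOB, TTR, HNF4A, SERPINA1 and FGB were all present, at 260 to 20268 CPM after knockdown and 350 to 21336 CPM in the control. Of endothelial markers PECAM1 and CDH5 were under 1 CPM in both groups, and of immune markers CD3E had no row while PTPRC was at 1.59 CPM after knockdown and 1.13 CPM in the control. LYZ, an immune marker in the list, was at 649 CPM after knockdown and 260 CPM in the control, while CD68 (7.92 and 6.83 CPM) was not called by limma. The stromal markers split. COL1A2 (282 and 135 CPM) and LUM (13 and 10.8 CPM) were called higher, COL1A1 (12.9 and 19.5 CPM) and PDGFRB (18.2 and 25.2 CPM) lower. Summed, the 3 tested immune markers reached 628 to 705 CPM after knockdown and 258 to 284 CPM in the control. The 4 tested stromal markers reached 321 to 333 and 185 to 196 CPM. LYZ and COL1A2 made most of these 2 sums. Of the 8 hepatocyte markers, 5 fell and 2 rose. These cultures were measured in bulk, so a change in the make-up of the cells and a change of RNA per cell cannot be told apart. The part of these markers in the results below was not tested.

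The zinc finger members leaned upward after SETD5 knockdown by small amounts. The limma test called 36 of the 81 members higher and 6 lower at an adjusted p under 0.05. Without control replicate 3 only 3 were called lower. The calls make 44.4% and 7.41% of the members, where 25.7% of all 12865 tested genes were called higher and 26.5% lower. The median log2 fold change of the members was 0.15, with an interquartile range of -0.00 to 0.28 and 60 members above 0, while the median of all tested genes was -0.00. The log2 fold changes ran from -0.54 for ZBTB4 to 0.63 for ZFP90. Called rises had a median of 0.29, a fold of 1.23, and the called falls a median of -0.31. A rise of at least 1.5-fold was called for ZFP90 alone, 1.23% of the members beside 2.85% of all tested genes. No member was called at least 1.5-fold lower by limma, nor at an unadjusted p under 0.05 or by voom on the recovered reads, where 3.78% of all tested genes were called so by limma. All log2 fold changes here compare log2(CPM + 1) values, so those of weakly expressed genes come out too small. With a pseudocount of 0.1 the log2 changes of ZFP90, ZKSCAN7 and ZBTB37 were 0.69, 0.64 and 0.73, and all 3 passed the 1.5-fold limit. An exact two-sided permutation test of a single gene cannot give less than p = 0.1 with 3 against 3 libraries.

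**Figure D1:**
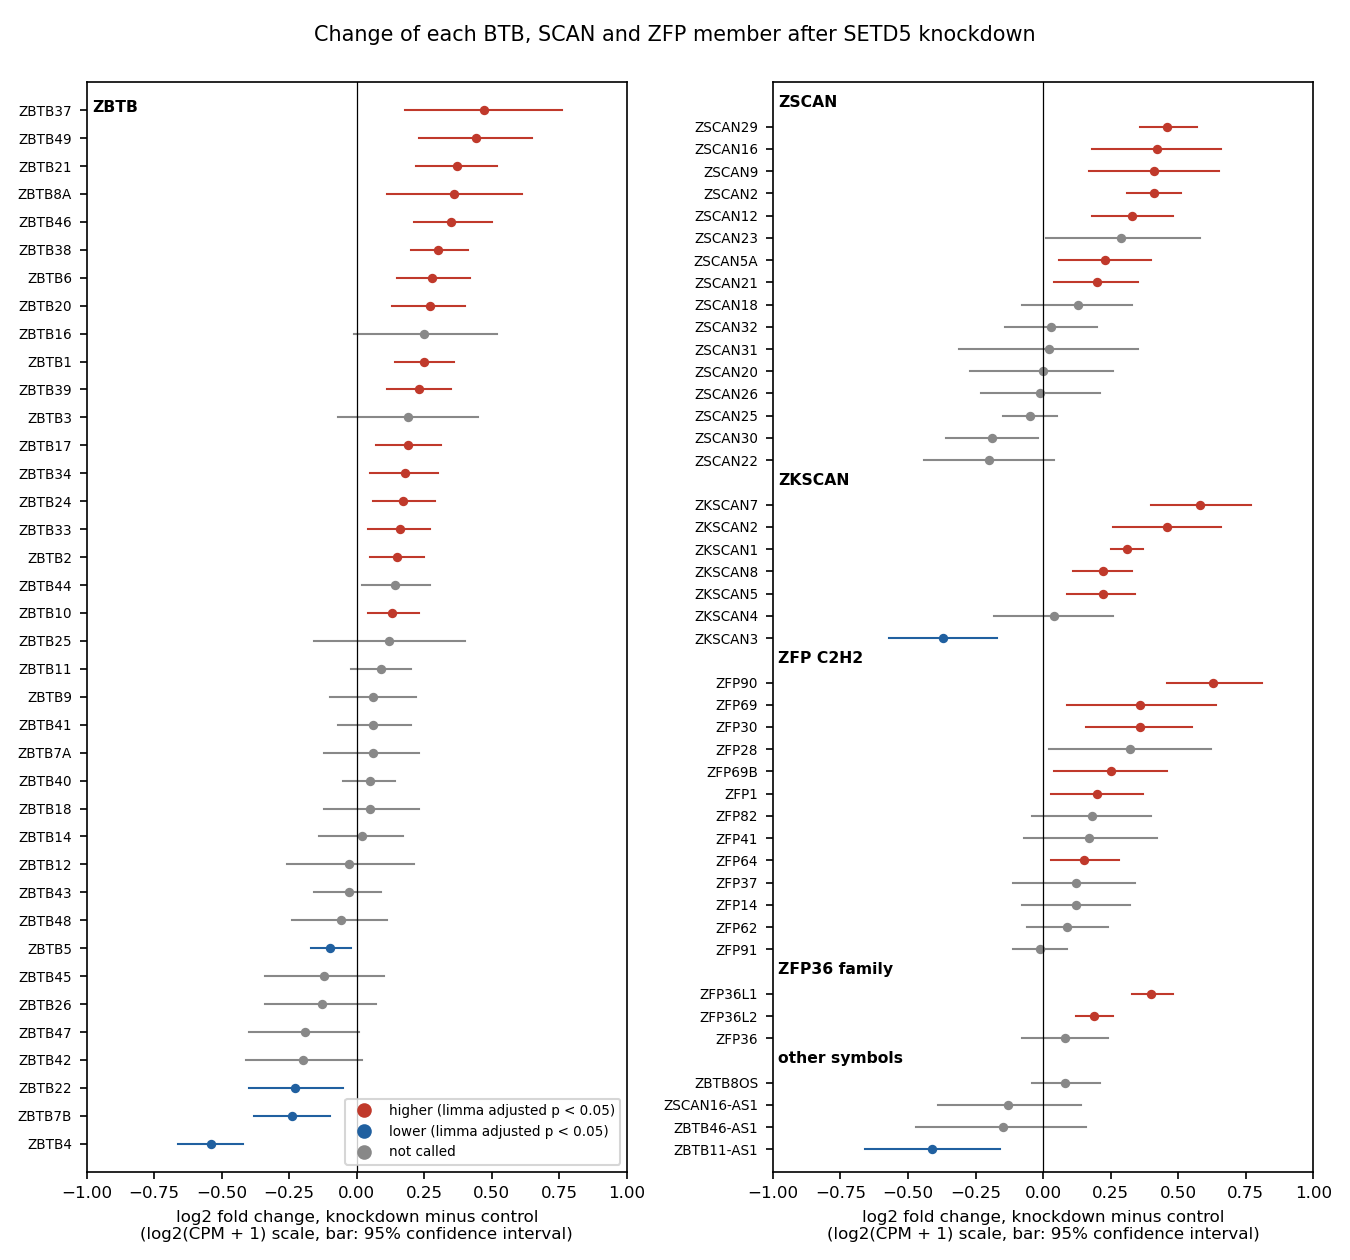
Each point is the log2 fold change of a member, knockdown minus control on the log2(CPM + 1) scale, with its 95% confidence interval, sorted within its class. Red marks the 36 members called higher by limma and blue the 6 called lower, and the points lie between -0.54 (ZBTB4) and 0.63 (ZFP90).

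**Figure D2:**
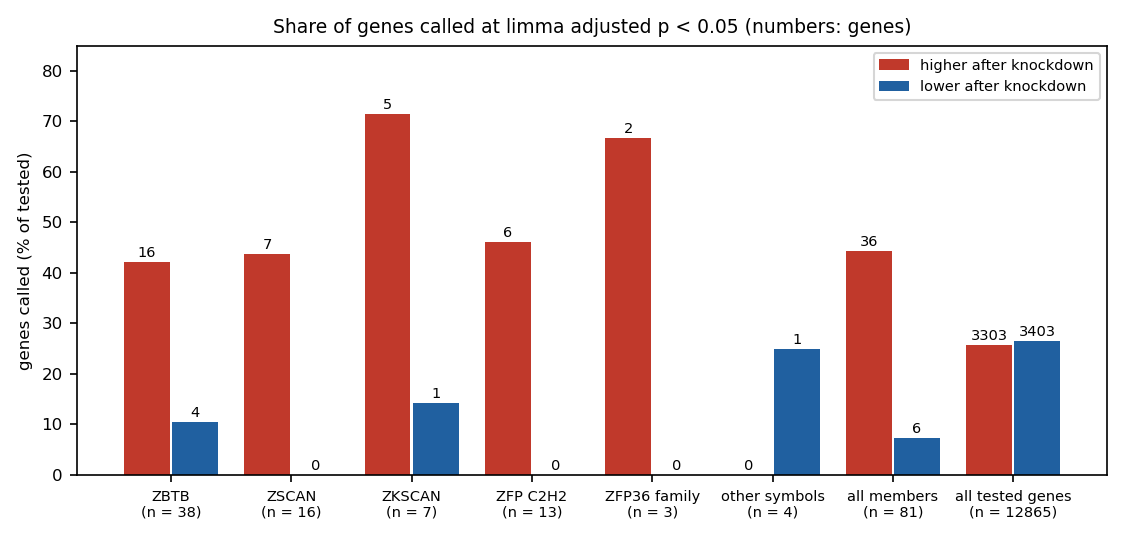
Bars give the percentage of tested genes called higher (red) or lower (blue) after knockdown in each class, for all 81 members and for all 12865 tested genes, with the number of genes above each bar. The 5 ZKSCAN rises make 71.4% of their class, against 25.7% of all tested genes, and no ZSCAN gene was called lower.

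The direction of the balance was seen at each level of expression. Among the 18 members with a mean of 1 to under 5 CPM, 5 were called higher and 1 lower, beside 14.7% and 15.6% of all tested genes at that level. Of the 34 members at 5 to under 20 CPM, 13 were higher and 2 lower, beside 21.6% and 24.1%. Of the 29 at 20 CPM and over, 18 were higher and 3 lower, beside 30.4% in either direction. Summed over the members, the level was 1992, 1978 and 1971 CPM in the knockdown libraries and 1742, 1751 and 1783 CPM in the control libraries. Of the difference of 221 CPM between the means, ZKSCAN1 alone made 22.5%, and ZKSCAN1, ZFP36L1 and ZFP36L2 together 47.3%.

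Regions around the transcription start are shown for the 3 members whose rise passed 1.5-fold with a pseudocount of 0.1 and the 2 zinc finger genes with the largest called falls among those with a promoter entry, so that members that moved in opposite directions can be read side by side. Each is RefSeq sequence of GRCh38.p14, 250 bases before to 50 after the start and read on the strand of the gene. Capitals mark CCGGAA or its reverse complement TTCCGG, a form of the site that ETS factors bind. Other forms of that site were not marked or counted.
ZFP90 (chr16:68539041-68539340, plus strand): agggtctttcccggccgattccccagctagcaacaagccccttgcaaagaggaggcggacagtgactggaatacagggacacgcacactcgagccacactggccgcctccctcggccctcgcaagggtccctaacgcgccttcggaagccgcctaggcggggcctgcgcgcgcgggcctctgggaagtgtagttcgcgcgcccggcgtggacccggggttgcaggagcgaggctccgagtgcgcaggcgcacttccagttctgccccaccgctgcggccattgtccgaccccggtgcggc
ZKSCAN7 (chr3:44554943-44555242, plus strand): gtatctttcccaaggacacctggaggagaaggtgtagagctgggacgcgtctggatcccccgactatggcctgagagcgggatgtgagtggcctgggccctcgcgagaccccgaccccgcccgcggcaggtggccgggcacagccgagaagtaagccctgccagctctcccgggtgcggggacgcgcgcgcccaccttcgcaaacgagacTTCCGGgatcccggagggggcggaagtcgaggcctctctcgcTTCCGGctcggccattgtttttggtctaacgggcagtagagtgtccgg
ZBTB37 (chr1:173868130-173868429, plus strand): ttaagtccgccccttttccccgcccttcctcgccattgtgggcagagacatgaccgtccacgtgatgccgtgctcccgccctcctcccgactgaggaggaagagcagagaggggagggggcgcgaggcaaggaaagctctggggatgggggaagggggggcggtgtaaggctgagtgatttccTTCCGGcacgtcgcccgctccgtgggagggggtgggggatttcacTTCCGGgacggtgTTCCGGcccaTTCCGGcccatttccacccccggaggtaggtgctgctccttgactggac
ZBTB4 (chr17:7484200-7484499, minus strand): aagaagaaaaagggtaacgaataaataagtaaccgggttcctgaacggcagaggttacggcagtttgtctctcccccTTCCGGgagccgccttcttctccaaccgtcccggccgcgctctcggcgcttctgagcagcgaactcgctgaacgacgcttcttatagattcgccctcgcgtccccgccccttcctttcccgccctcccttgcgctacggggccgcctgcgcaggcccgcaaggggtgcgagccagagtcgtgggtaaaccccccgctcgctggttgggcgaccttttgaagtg
ZKSCAN3 (chr6:28349697-28349996, plus strand): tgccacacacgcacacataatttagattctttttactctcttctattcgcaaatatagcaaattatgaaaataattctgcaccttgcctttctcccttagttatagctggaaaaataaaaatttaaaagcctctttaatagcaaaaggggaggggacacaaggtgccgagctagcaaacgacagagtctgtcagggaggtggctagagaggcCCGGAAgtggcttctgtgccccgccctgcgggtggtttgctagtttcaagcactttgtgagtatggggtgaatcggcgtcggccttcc

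The letters CCGGAA, searched on both strands, were found in 31 of the 68 member promoters in the table (45.6%), in 30.5% of the 10236 promoters of tested genes and in 17.6% of all 27305 promoters. By call, they were in 15 of 30 promoters of members called higher, 3 of 6 called lower and 13 of 32 not called. ZBTB37 held 4 matches, ZKSCAN7 held 2, ZBTB4 and ZKSCAN3 held 1 each and ZFP90 held 0. The GC box GGGCGG, a site of SP and KLF factors, was in 46 member promoters (67.6%) and in 70% of the promoters of tested genes. CACGTG was in 9 member promoters (13.2%, tested genes 10.3%), GCCATNTT, a YY1 core, in 3 (4.41%, tested genes 10.6%), TGACGTCA in 3 (4.41%, tested genes 3.28%) and the NRF1 palindrome in 1 (1.47%, tested genes 2.39%). These are matches of letters in a window of 300 bases and not measured binding. No promoter entry was matched for ZBTB17, ZBTB40, ZBTB41, ZBTB16, ZKSCAN2, ZFP14, ZFP28, ZFP36L2, ZSCAN12P1, ZSCAN16, ZSCAN26, ZBTB10, ZFP41 and ZBTB6.

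Among the 38 ZBTB genes, 16 rose and 4 fell by the limma test, and the remaining 18 did not pass. The 4 falls became 2 without knockdown replicate 1 or control replicate 1, and 1 without control replicate 3. Their median log2 fold change was 0.13. ZBTB37 had the largest rise, with 2.19, 2.15 and 1.73 CPM in the knockdown libraries and 1.23, 1.32 and 1.00 CPM in the control libraries. Every knockdown library was above every control library, but the values rest on only 14 to 35 reads per library (log2 fold change 0.47, SE 0.14, limma adjusted p 0.0066). ZBTB49, which has been reported to act at the promoter of the CDK inhibitor gene CDKN1A, had 8.13, 7.18 and 8.97 CPM after knockdown and 6.15, 5.43 and 5.50 CPM in the control. Its groups did not overlap, at 1.42 times the control (limma adjusted p 0.000482). ZBTB21 had 19.0, 20.7 and 19.0 CPM in knockdown libraries, against 14.7, 14.3 and 15.7 CPM in control libraries, a fold of 1.31 with limma adjusted p 4.78e-05. ZBTB46, known as a factor of classical dendritic cells, had 17.3, 18.2 and 19.2 CPM in the knockdown, against 14.5, 14.1 and 13.4 CPM in the control (1.30 times, limma adjusted p 0.000113). In both genes the lowest knockdown library was above the highest control library. ZBTB8A was called higher with overlapping groups, at 4.31, 6.69 and 5.44 CPM after knockdown and 4.51, 3.90 and 3.64 CPM in the control (log2 fold change 0.36, limma adjusted p 0.0147). Without knockdown replicate 2, control replicate 3 or the mean-variance trend that call ended, with an adjusted p of up to 0.159, and 179 exon bases of ZBTB8A lie opposite ZBTB8OS.

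ZBTB4, ZBTB33 and ZBTB38 form a subgroup whose proteins bind methylated CpG and recruit repressors, and its members moved apart. ZBTB4 fell, with 22.4, 21.8 and 23.4 CPM after knockdown and 33.8, 33.6 and 32.4 CPM in the control. The groups were well apart, with means of 22.5 ± 0.803 CPM and 33.3 ± 0.784 CPM (SD, n = 3 each) and a log2 fold change of -0.54 (SE 0.058, limma adjusted p 6.97e-10). It was the largest fall of any member. ZBTB38 rose, with 48.4, 44.9 and 43.8 CPM after knockdown and 36.5, 35.9 and 37.9 CPM in the control, also without overlap (log2 fold change 0.30, limma adjusted p 4.46e-06). ZBTB33, known as Kaiso, rose to 1.12 times the control, with means of 42.8 ± 1.16 CPM after knockdown and 38.3 ± 3.82 CPM in the control (SD, n = 3 each, limma adjusted p 0.0178).

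The other ZBTB falls were smaller and less firm. ZBTB7B, known as ThPOK in the choice of the CD4 T cell lineage, had 18.8, 20.7 and 19.7 CPM in knockdown libraries and 23.4, 21.3 and 25.9 CPM in control libraries. Control replicate 2 came close to knockdown replicate 2, and without control replicate 3 the call ended (log2 fold change -0.24, limma adjusted p 0.00373 with all libraries and 0.0579 without that replicate). ZBTB22 had 9.75, 11.3 and 10.5 CPM after knockdown and 13.2, 11.4 and 12.8 CPM in the control (log2 fold change -0.23, limma adjusted p 0.025). ZBTB5, a repressor studied at the CDKN1A promoter, had 81.3, 86.0 and 82.1 CPM after knockdown and 91.5, 87.0 and 88.2 CPM in the control, a log2 change of only -0.10 (limma adjusted p 0.0364). Neither ZBTB22 nor ZBTB5 kept its call without knockdown replicate 1 or 3 or control replicate 1 or 3, and over all alternatives the adjusted p reached 0.117 and 0.165. ZBTB7A, the close relative of ZBTB7B that represses fetal globin genes, had means of 10.5 ± 0.91 CPM after knockdown and 10.0 ± 0.225 CPM in the control (SD, n = 3 each) and did not pass (limma adjusted p 0.609).

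Several ZBTB genes with many reads changed little. ZBTB11 had 48.8, 52.7 and 44.9 CPM after knockdown and 43.4, 44.6 and 48.9 CPM in the control, with overlap (limma adjusted p 0.144, but 0.0236 without knockdown replicate 3 and 0.0428 without control replicate 3). ZBTB40 likewise overlapped, at 45.4, 47.7 and 45.5 CPM after knockdown and 47.0, 42.8 and 44.4 CPM in the control (log2 fold change 0.05, 95% confidence interval -0.05 to 0.14). ZBTB10 had 48.4, 49.0 and 47.3 CPM after knockdown and 42.4, 44.9 and 44.4 CPM in the control, a called rise of 0.13 in log2 (limma adjusted p 0.0165) that ended without knockdown replicate 2 or control replicate 1. The other called rises of the class were ZBTB6, ZBTB20, ZBTB1, ZBTB39, ZBTB17, ZBTB34, ZBTB24 and ZBTB2, at 1.11 to 1.23 times the control. ZBTB20, known in mice as a repressor of Afp in the liver after birth, averaged 25.8 ± 2.54 CPM after knockdown and 21.2 ± 0.221 CPM in the control (SD, n = 3 each). ZBTB17, the MYC partner MIZ-1, averaged 31.1 ± 1.52 CPM after knockdown and 27.1 ± 0.608 CPM in the control (SD, n = 3 each). ZBTB24, a gene mutated in ICF immunodeficiency syndrome, averaged 29.4 ± 0.642 CPM after knockdown and 26.0 ± 1.23 CPM in the control (SD, n = 3 each). It shares 305 exon bases with MICAL1 on the same strand, and MICAL1 was at 33.1 CPM after knockdown and 19.2 CPM in the control. ZBTB9 did not pass (limma adjusted p 0.53). ZBTB16, the PLZF gene, was at 3.23 ± 0.356 CPM after knockdown and 2.56 ± 0.454 CPM in the control (SD, n = 3 each, limma adjusted p 0.102). The remaining members that did not pass were ZBTB3, ZBTB12, ZBTB14, ZBTB18, ZBTB25, ZBTB26, ZBTB41, ZBTB42, ZBTB43, ZBTB44, ZBTB45, ZBTB47 and ZBTB48, with log2 changes of -0.20 to 0.19.

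**Figure D3:**
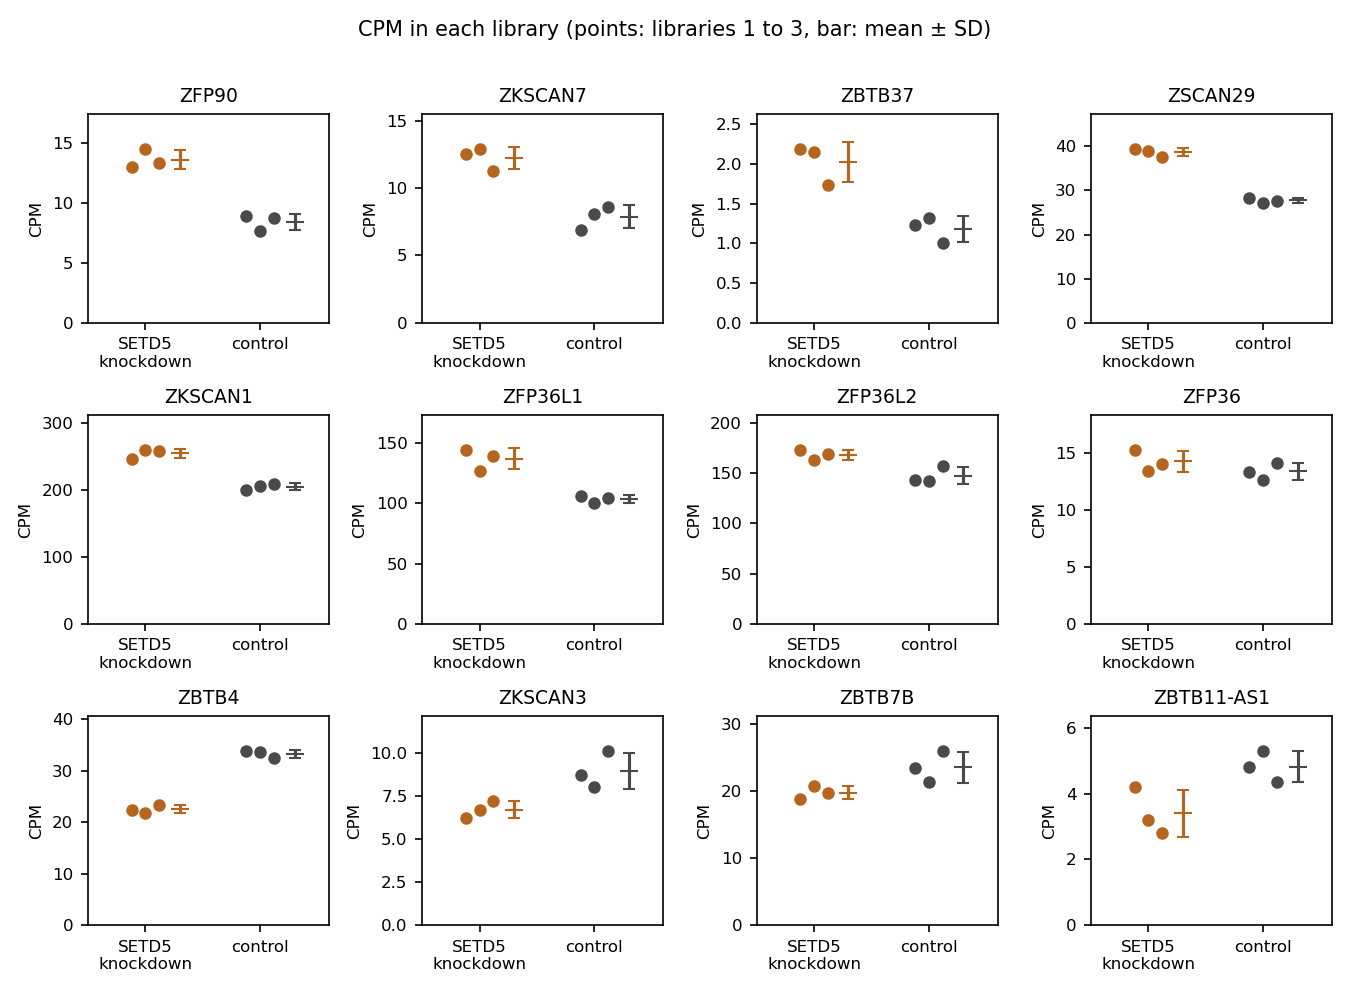
CPM of 12 members in each of the 3 knockdown and 3 control libraries, with the mean ± SD beside the points and axes that start at 0. The knockdown points of ZFP90 (13.0 to 14.5 CPM) lie above its control points (7.66 to 8.90 CPM), those of ZBTB4 lie below its control points, and those of ZFP36 overlap with its control points.

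Of the 16 ZSCAN genes, 7 rose and 9 did not pass. None was called lower by limma or by voom, and 1 was lower at an unadjusted p under 0.05. With a limit of 5 CPM, or without the mean-variance trend, 1 ZSCAN gene was called lower. The median log2 fold change was 0.16. ZSCAN29 had the largest rise on the log2(CPM + 1) scale, although the ratio of means was higher for the weakly expressed ZSCAN16 (1.45) and ZSCAN9 (1.43) than for ZSCAN29 (1.39). ZSCAN29 had 39.4, 38.9 and 37.6 CPM in the knockdown libraries and 28.3, 27.2 and 27.7 CPM in the control libraries. ZSCAN2 moved nearly as far, with 44.8, 45.1 and 42.3 CPM after knockdown and 33.2, 33.6 and 32.1 CPM in the control. Both genes had groups several SD apart, with log2 fold changes of 0.46 (SE 0.053, limma adjusted p 3.56e-09) and 0.41 (SE 0.051, limma adjusted p 1.88e-08). ZSCAN29 shares 102 exon bases with TUBGCP4 on the opposite strand, which stood at 29.3 CPM after knockdown and 33.7 CPM in the control. ZSCAN12 had 16.6, 16.1 and 16.2 CPM after knockdown and 12.7, 13.3 and 12.4 CPM in the control, again without overlap (1.28 times, limma adjusted p 0.000368). It has a related pseudogene, ZSCAN12P1, so the split of reads is uncertain.

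The lower ZSCAN members rested on fewer reads. ZSCAN16 had 4.50, 4.42 and 4.13 CPM after knockdown and 3.22, 3.06 and 2.72 CPM in the control, from 38 to 72 reads (log2 fold change 0.42, limma adjusted p 0.00309). ZSCAN9 had 5.44, 4.73 and 4.31 CPM after knockdown and 3.57, 3.27 and 3.29 CPM in the control (log2 fold change 0.41, limma adjusted p 0.00363). For both, all knockdown libraries were above all control libraries. ZSCAN5A, of a family with close copies, had 13.1, 13.4 and 12.6 CPM after knockdown and 12, 9.96 and 10.9 CPM in the control (limma adjusted p 0.0191). ZSCAN21 had 16.3, 17.4 and 16.0 CPM after knockdown and 14.6, 13.0 and 15.5 CPM in the control (limma adjusted p 0.0328). Both calls ended without knockdown replicate 2 or control replicate 2, and that of ZSCAN21 also without knockdown replicate 1 or the mean-variance trend, with adjusted p of up to 0.112 for ZSCAN5A and 0.195 for ZSCAN21. ZSCAN21 also shares 880 exon bases with ZNF3 on the opposite strand, at 59.9 CPM after knockdown and 44.7 CPM in the control. ZSCAN25 had 39.8, 42.3 and 39.0 CPM after knockdown and 40.6, 41.8 and 43.0 CPM in the control, and ZSCAN32 had 15.3, 17.7 and 13.5 CPM after knockdown and 16.2, 14.6 and 14.5 CPM in the control. Neither passed, with overlapping groups in both. ZSCAN18, ZSCAN20, ZSCAN22, ZSCAN23, ZSCAN26, ZSCAN30 and ZSCAN31 did not pass either, with log2 changes of -0.20 for ZSCAN22 to 0.29 for ZSCAN23.

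The 7 ZKSCAN genes had 5 rises and 1 fall, with a median log2 fold change of 0.22. ZKSCAN7 had 12.5, 12.9 and 11.3 CPM in the knockdown libraries and 6.91, 8.08 and 8.57 CPM in the control libraries. Its means of 12.2 ± 0.826 CPM after knockdown and 7.85 ± 0.855 CPM in the control (SD, n = 3 each) differ by 0.58 in log2 (SE 0.092, limma adjusted p 1.83e-06). ZKSCAN7 shares 160 exon bases with ZNF660 on the same strand, which was at 7.66 CPM after knockdown and 5.99 CPM in the control. ZKSCAN2 had 10.9, 8.90 and 9.27 CPM after knockdown and 7.08, 6.55 and 6.65 CPM in the control, without overlap (1.44 times, limma adjusted p 0.000133). ZKSCAN1, the host gene of a circular RNA that is abundant in liver, had the most reads of any member, with 247, 260 and 258 CPM after knockdown and 200, 207 and 209 CPM in the control. Its log2 fold change was 0.31 (SE 0.031, limma adjusted p 7.8e-11). The libraries were poly(A)-selected, and the table does not separate circular from linear RNA.

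ZKSCAN8 and ZKSCAN5 rose less. ZKSCAN8 had 46.8, 41.7 and 45.9 CPM after knockdown and 36.9, 41.4 and 36.6 CPM in the control, with control replicate 2 just under knockdown replicate 2 (limma adjusted p 0.000767). ZKSCAN5 was called with groups that overlap, at 36.8, 37.4 and 34.3 CPM after knockdown and 29.4, 29.3 and 34.5 CPM in the control (limma adjusted p 0.00264). ZKSCAN3, a repressor of autophagy and lysosome genes, was the only ZKSCAN gene called lower. It had 6.19, 6.69 and 7.18 CPM after knockdown and 8.72, 8.01 and 10.1 CPM in the control, a log2 fold change of -0.37 (SE 0.099, limma adjusted p 0.0022). ZKSCAN4, which lies near ZKSCAN3 but not next to it, had 5.13, 5.09 and 5.08 CPM after knockdown and 5.27, 5.15 and 4.43 CPM in the control. It did not pass (95% confidence interval of the log2 fold change -0.18 to 0.26).

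The largest run of neighbouring members in RefSeq gene order held 11 symbols, and they did not move as a block. In order these were ZSCAN12P1, ZSCAN16-AS1, ZSCAN16, ZKSCAN8, ZSCAN9, ZKSCAN4, ZSCAN26, ZSCAN31, ZKSCAN3, ZSCAN12 and ZSCAN23, with at most 1 other protein-coding gene between any neighbours. ZSCAN16, ZKSCAN8, ZSCAN9 and ZSCAN12 rose and ZKSCAN3 fell, while ZSCAN16-AS1, ZKSCAN4, ZSCAN26, ZSCAN31 and ZSCAN23 did not pass. ZKSCAN3 and ZSCAN12 stand next to each other, with log2 fold changes of -0.37 and 0.33 whose 95% confidence intervals (-0.57 to -0.17 and 0.18 to 0.48) do not overlap. A further 11 pairs of members were neighbours, with a limit of 5 other protein-coding genes between them. In 2 of them both genes rose (ZFP69 with ZFP69B and ZKSCAN1 with ZSCAN21), in 6 only 1 rose and the other did not pass, in 2 neither passed, and in 1, ZBTB11 with ZBTB11-AS1, the antisense gene fell. ZBTB6 and ZBTB26 are an example of a split pair, as ZBTB26 did not pass (log2 fold change -0.13, limma adjusted p 0.264).

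**Figure D4:**
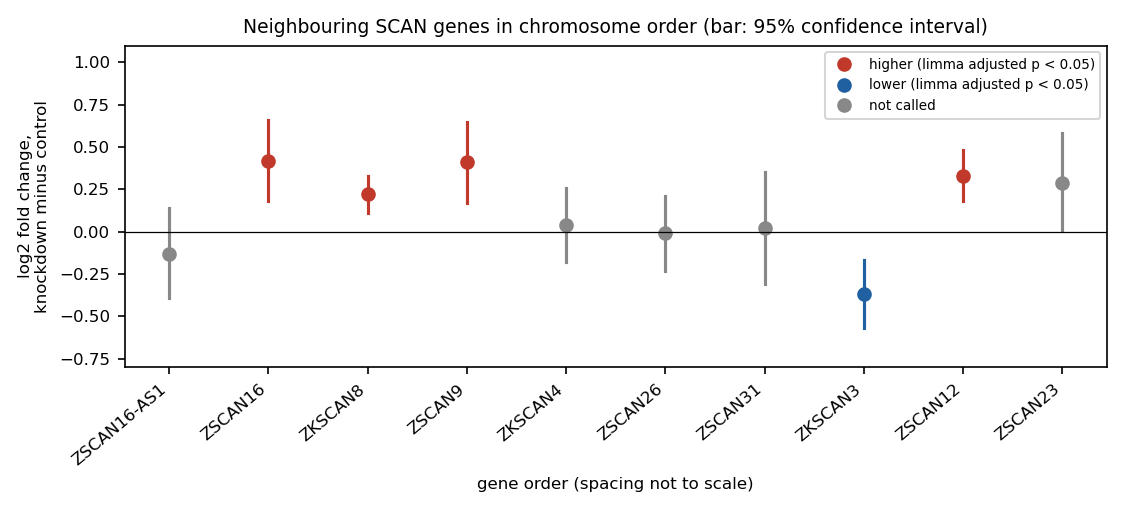
Log2 fold change, knockdown minus control, of the 10 tested members of the run of SCAN genes in chromosome order, with 95% confidence intervals and evenly spaced genes. The rises of ZSCAN16, ZKSCAN8 and ZSCAN9 stand side by side, followed by 3 genes near 0 such as ZSCAN26 (-0.01), the fall of ZKSCAN3 (-0.37) and the rise of ZSCAN12 (0.33).

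The 13 ZFP genes with C2H2 fingers had 6 rises and 7 genes that did not pass. None was called lower by limma or voom, or lower at an unadjusted p under 0.05, and the median log2 fold change was 0.18. ZFP90, a KRAB zinc finger gene, showed the largest rise of all members on the log2(CPM + 1) scale, while by the ratio of means ZBTB37 was ahead (1.71 against 1.62). Its levels were 13.0, 14.5 and 13.3 CPM in knockdown libraries and 8.90, 7.66 and 8.72 CPM in control libraries. The means were 13.6 ± 0.823 CPM after knockdown and 8.43 ± 0.669 CPM in the control (SD, n = 3 each), 1.62 times the control (log2 fold change 0.63, SE 0.087, limma adjusted p 1.4e-07). ZFP30 had 8.56, 9.08 and 8.31 CPM after knockdown and 6.44, 6.34 and 6.86 CPM in the control, without overlap (log2 fold change 0.36, limma adjusted p 0.00201). It shares 341 exon bases with ZNF781 on the same strand, which had 3.19 CPM after knockdown and 2.83 CPM in the control and was not called. ZFP69 and ZFP69B are close paralogs, so their reads may be split uncertainly. ZFP69 had 2.88, 2.27 and 2.63 CPM after knockdown and 1.58, 2.16 and 1.64 CPM in the control (limma adjusted p 0.0253), and ZFP69B had 6.06, 6.51 and 6.70 CPM after knockdown and 5.27, 5.57 and 4.86 CPM in the control (limma adjusted p 0.0407).

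ZFP1 and ZFP64 were close to the threshold. ZFP1 had 13.0, 11.5 and 13.3 CPM after knockdown and 10.5, 10.9 and 11.1 CPM in the control (limma adjusted p 0.0461). ZFP64, a regulator of the KMT2A promoter in leukaemia, had 27.5, 26.0 and 27.5 CPM after knockdown and 23.5, 25.3 and 23.7 CPM in the control (limma adjusted p 0.0313). In these 2 genes and in ZFP69 and ZFP69B the groups did not overlap, yet each call ended without 1 of several libraries, with adjusted p of up to 0.171 for ZFP1, 0.105 for ZFP64, 0.11 for ZFP69 and 0.135 for ZFP69B. The class thus had 2 to 3 called rises instead of 6 without knockdown replicate 1 or 3 or control replicate 1 or 3. ZFP91, a ubiquitin ligase and one of the proteins degraded through cereblon on treatment with thalidomide analogs, had 66.3, 56.0 and 62.3 CPM after knockdown and 60.4, 61.6 and 63.2 CPM in the control. ZFP62 had 15.3, 16.8 and 15.5 CPM after knockdown and 14.6, 14.9 and 14.9 CPM in the control, and ZFP14 had 7.44, 8.16 and 7.18 CPM after knockdown and 6.32, 7.45 and 6.93 CPM in the control. These 3 did not pass, and the 95% confidence interval of ZFP91 was -0.11 to 0.09. ZFP28, ZFP37, ZFP41 and ZFP82 did not pass either, with log2 changes of 0.12 to 0.32.

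ZFP36L2 and ZFP36L1 had the most reads per length of all members. Per kilobase of merged exons, the mean level over all libraries was 42.7 CPM for ZFP36L2, 23.2 CPM for ZFP36L1 and 22.3 CPM for ZKSCAN1, followed by 18.6 CPM for ZBTB5 and 14.1 CPM for ZBTB2. ZFP36L1, which in mice acts on the Cyp7a1 message in liver, had 144, 127 and 139 CPM after knockdown and 106, 99.8 and 104 CPM in the control. All knockdown libraries were above all control libraries (1.33 times, log2 fold change 0.40, SE 0.039, limma adjusted p 5.93e-11). ZFP36L2 had 173, 163 and 169 CPM after knockdown and 143, 142 and 157 CPM in the control, a smaller rise without overlap (log2 fold change 0.19, SE 0.035, limma adjusted p 2.29e-05). ZFP36, known as tristetraprolin, had 15.3, 13.5 and 14.1 CPM after knockdown and 13.4, 12.7 and 14.2 CPM in the control, with overlap (limma adjusted p 0.41). Its 95% confidence interval of -0.08 to 0.24 reaches the rise of ZFP36L2 but not that of ZFP36L1, and the difference between the genes was not tested.

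Genes that work with the ZFP36 family moved both ways. Of 33 tested genes of AU-rich element binding, deadenylation and decapping, 14 rose (42.4%) and 6 fell (18.2%), beside 25.7% and 26.5% of all tested genes. Their median log2 fold change was 0.07. Their median level was 91.5 CPM, and of all tested genes at 20 CPM and over 30.4% were called in each direction. The antiproliferative gene BTG1, which engages the deadenylase, was at 167 ± 5.96 CPM after knockdown and 98.2 ± 1.12 CPM in the control, and its relative TOB2 at 79.4 ± 3.49 and 52.3 ± 1.91 CPM (SD, n = 3 each). CNOT11, a subunit of CCR4-NOT, fell to 0.705 times and the decapping cofactor DCP1A to 0.765 times the control, while the decapping enzyme DCP2 rose to 1.28 times. Of 22 short-lived messages known as ZFP36 targets, 7 fell and 5 rose, beside 26.5% and 25.7% of all tested genes, and their median was -0.09. CXCL8 was at 9.59 ± 0.0758 CPM after knockdown and 13.9 ± 0.219 CPM in the control, and HIF1A at 325 ± 4.92 and 415 ± 0.429 CPM (SD, n = 3 each). BIRC3 went the other way, at 2.96 ± 0.222 and 1.41 ± 0.351 CPM, as did MYC, at 112 ± 1.35 CPM after knockdown and 89.3 ± 3.01 CPM in the control (SD, n = 3 each).

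Of the symbols that share only the letters, 4 were tested and 1 was called lower. None of the 4 was called higher by limma or voom, or higher at an unadjusted p under 0.05. ZBTB11-AS1, antisense to ZBTB11, had 4.19, 3.19 and 2.81 CPM after knockdown and 4.80, 5.29 and 4.36 CPM in the control and was called lower (log2 fold change -0.41, limma adjusted p 0.00525). It overlaps ZBTB11 over 891 exon bases, and although the kit keeps strand, the counting setting is not given, so reads of the pair may not be separated. ZSCAN16-AS1 had 2.31, 2.70 and 3.47 CPM after knockdown and 3.22, 2.99 and 3.22 CPM in the control, and ZBTB46-AS1 had 1.31, 1.23 and 0.718 CPM after knockdown and 1.23, 1.18 and 1.5 CPM in the control. ZBTB8OS, which encodes archease, a cofactor of the tRNA ligase complex, had 30.8, 33.0 and 31.6 CPM after knockdown and 29.4, 33.5 and 27.4 CPM in the control. None of these 3 passed, and all overlapped between groups, although ZBTB8OS was called higher without control replicate 2 (limma adjusted p 0.0328). ZSCAN12P1 stood below the limit, at 0.813, 0.123 and 0.718 CPM after knockdown and 0.878, 0.279 and 0.929 CPM in the control, while the lowest members above it were ZSCAN31, ZBTB46-AS1 and ZFP28 at means of 1.15, 1.2 and 1.4 CPM.

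Related genes under other names were counted beside the members. Of all tested genes 25.7% were called higher and 26.5% lower, but at 20 CPM and over 30.4% were called in each direction. The KRAB corepressor genes below had means of at least 35.7 CPM. Those for BTB corepressors and CUL3 had at least 19.8 CPM, so the share at 20 CPM and over is the closer background for both lists. Of 6 tested BTB zinc finger genes with other symbols, 3 rose and 1 fell: PATZ1 was at 1.26 times, BCL6, the germinal centre repressor, at 1.18 times and HIC2 at 1.1 times the control, while MYNN fell to 0.862 times. Of 24 tested SCAN genes with other symbols, 8 rose (33.3%) and 3 fell (12.5%), with a median log2 fold change of 0.11. ZNF446 rose to 1.47 times and ZNF24 to 1.12 times, and ZNF444 fell to 0.819 times the control. Without knockdown replicate 3 only 4 of these SCAN genes were called higher. The 15 KRAB corepressor genes had 10 rises (66.7%) and 1 fall (6.67%) and a median of 0.17: the HP1 gene CBX5 was at 335 ± 15.1 CPM after knockdown and 248 ± 2.28 CPM in the control (SD, n = 3 each), and TRIM28 rose to 1.06 times. Of 16 genes for BTB corepressors and CUL3, 6 rose (37.5%) and 4 fell (25%), with NCOR1 at 1.11 times, TBL1X at 1.37 times and HDAC4 at 0.801 times the control.

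The hexamer GCACCT was looked up in the 3' UTRs because earlier results of these data tied it to genes that fell. Of all tested genes with a 3' UTR in GENCODE 29, 28.6% held it. Of those, 24.7% were called higher and 34.5% lower, beside 27.9% and 24.3% of genes without it. The sets also differ in 3' UTR length, with medians of 2461 bases with the word and 779 without it (2790 and 1422 bases among the members). Of 78 members with a 3' UTR, 26 held the word. Of these 26, 12 were called higher and 2 lower, and of the 52 without it 24 were higher and 3 lower, so 46.2% were called higher in either set. The holders that fell were ZBTB4 and ZBTB5. Sites are shown for these and for ZFP90, a holder that rose, in GRCh38 with the word in capitals.
ZBTB4 (chr17:7460777-7460806, minus strand): cccttcaaaataGCACCTtacaccccatct
ZBTB5 (chr9:37439177-37439206, minus strand): gggctgttagtgGCACCTgtatgaggccaa
ZFP90 (chr16:68565375-68565404, plus strand): aacatttaatggGCACCTatgggttggaca

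ZBTB4, which fell most, and ZFP90, which rose most on the log2(CPM + 1) scale, both held the word, whereas ZBTB37, which rose most by the ratio of means, did not. The siRNA sequence is not given in the sources used here, and the part of the word in these changes was not tested.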

How the data were processed

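RNA sequencing values of 3 SETD5 knockdown and 3 control libraries were used, grouped by their genotype label. The authors deposited 1 table of log2 values, 14200 genes by 6 columns. Undoing the log and subtracting 1 gave whole multiples of 1 step in each column (100% of values within 0.01 of a whole read), so the values are log2(CPM + 1). The submitters' processing notes name STAR 2.5.1, R 3.3.0, hg19 and mm10 without a role. The sources used here do not give how reads were counted.

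A filter kept genes whose mean reached 1 CPM, and these were tested with limma 3.58.1 in R 4.3.3 (lmFit, eBayes with trend, two-sided, group only), with Benjamini-Hochberg adjustment over all 12865 genes and a threshold of 0.05. The script was tested on simulated counts with changes of at least 1.5-fold and a small added spread. Smaller changes, like most of those called here, were not simulated, so that test does not cover them. Means are given ± SD. The floor of 3 reads for a gene at 0 was 0.176 to 0.214 CPM, and precision from reads covers counting error only. Chi-square per gene between recovered reads was 1.25 to 2.1 within and 19.7 to 24.1 between groups. Each library was counted as 1 sample, and these values do not show whether libraries are separate cultures. Exon lengths, overlaps and 3' UTRs come from GENCODE 29, where all 82 symbols matched, and gene order and promoters from RefSeq (GRCh38.p14). No coordinates of hg19 are given. Alternatives were another pseudocount, other filters, no trend, voom, 2 other scalings, a replicate block and leaving out each library.

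The members and gene lists were chosen with earlier results of these data known. Values per library are given for up to 6 called members per direction and class with the largest change, up to 3 further members by level, the ZFP36 family and the symbols that are no zinc finger gene. Of the related lists, named genes come from up to 3 called per direction and the most abundant one.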

Additional observations from a re-analysis of the deposited data

How the results depend on the processing

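The counts of members called higher and lower were 36 and 6, and stayed within 1.5 times of these under every alternative run, except that 3 were called lower without control replicate 3. Leaving out 1 library gave 29 to 33 higher and 3 to 6 lower, with a median log2 change of 0.14 to 0.17 and 1 to 2 members at least 1.5-fold higher. That last count was 3 with a pseudocount of 0.1, 3 under voom, 2 under median centring and 2 under quantile normalization. The median was 0.17 under voom. In the main fit the only such member, ZFP90, holds GCACCT in its 3' UTR. The count of 0 among members without the word, a subset chosen after seeing the data, follows from that alone. Of the 33 named members that were called, 18 kept their call under all 14 alternatives, 4 more (ZBTB37, ZSCAN16, ZSCAN9 and ZBTB11-AS1) kept it under the 13 that tested them, being below the limit of 5 CPM, 11 lost it in at least 1, and none changed direction. Among named members that were not called, ZFP91 changed sign under median centring (0.0023), quantile normalization (0.01), without knockdown replicate 2 (0.06) and without control replicate 3 (0.01). ZSCAN32 did so without knockdown replicate 2 (-0.07) and ZKSCAN4 without control replicate 3 (-0.03). Over all 6 such refits ZFP91 ran between -0.06 and 0.06, ZSCAN32 between -0.07 and 0.12 and ZKSCAN4 between -0.03 and 0.08. The cause of these differences was not tested. The size of the smallest p-values depended on the mean-variance trend. Without it the limma adjusted p went from 5.93e-11 to 0.00169 for ZFP36L1 and from 7.8e-11 to 0.00122 for ZKSCAN1. For SETD5 it went from 1.15e-17 to 9.5e-05. Some weaker calls moved the other way, such as ZFP69B (0.0407 to 0.0116). With a replicate block, 36 members were called higher and 6 lower, and no call of a named member changed. Knockdown libraries 2 and 3, but not 1, correlated best with the control of their own number. Same-numbered libraries had correlations of -0.011, 0.054 and 0.042 of their deviations from the group means, and different-numbered libraries -0.06 to 0.021. Such deviations include counting error, so these correlations cannot decide whether the numbers pair the libraries. The planned negative binomial count tests were not run. On the recovered reads only voom was used. Depth limits members near 1 CPM, which had as few as 12 reads in a library.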

Other observations

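In the translated coding sequences of GENCODE 29, matches to the C2H2 finger pattern had a median of 4 per protein in ZBTB genes, 6 in ZSCAN genes, 7 in ZKSCAN genes and 12 in the ZFP genes, as counted by a script for cysteine and histidine pairs at the usual spacing. ZFP62 had the most, with 25. ZBTB genes called higher had a median of 4.5 matches, those called lower a median of 2 and those not called a median of 4. In ZSCAN genes the median was 6 both for those called higher and for those not called. ZFP36, ZFP36L1 and ZFP36L2 had 0 such matches, as their fingers are of the CCCH type.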
